A study of Mus musculus with 2 samples.

Results

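The Iroquois genes Irx1 to Irx6 are described here by the CTCF binding of ESCs at and around them. They lie in 2 clusters of 3 genes in the mm9 genome, and the members were chosen by name in the GENCODE M1 annotation, as 6 of its 22367 protein-coding genes. Each cluster was taken with 300 kb on each side. The region of Irx1, Irx2 and Irx4 ran over 1.91 Mb of chromosome 13 (chr13:71795680-73707068) and that of Irx3, Irx5 and Irx6 over 1.48 Mb of chromosome 8 (chr8:94022428-95504855). The regions held 20 and 13 CTCF peaks, or 33 of the 33788 on the deposited list.

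The study measured CTCF by ChIP-seq in R1/E, a mouse ESC line, kept in medium with serum and LIF. Its cells also expressed CTCF fused at the C-terminus to a LAP cassette with GFP, from a BAC in the genome, so that tagged CTCF was made beside the endogenous protein, and were sorted for GFP. After crosslinking with 1% formaldehyde and shearing to an average of 500 bp, chromatin of these cells was precipitated with a goat antibody against eGFP in 1 library and with goat IgG in 1 library, which 1 label also calls input DNA. The CTCF library held 8391191 tags and the IgG library 7988889 tags of 35 bp, and neither was replicated. Every test below therefore compares these libraries and not conditions, and every interval covers counting error only.

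Iroquois proteins are homeodomain transcription factors of the TALE class that pattern the neural tube, heart, limb and retina. The clusters arose by duplication, so that Irx1 is the paralogue of Irx3, Irx2 of Irx5 and Irx4 of Irx6. In ESCs these genes are known as targets of Polycomb repression, and RNA was not measured in the libraries used here. CTCF is a zinc finger protein that binds a long asymmetric motif, blocks contacts between enhancers and promoters, and anchors chromatin loops together with cohesin, preferentially between motifs that point toward each other.

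The genes stood in the same order and orientation in both clusters. Irx1 (chr13:72095680-72101171) and Irx3 (chr8:94322428-94325553) came first and were read on the minus strand. Irx2 (chr13:72766245-72771644) and Irx5 (chr8:94881695-94885351) followed on the plus strand, and Irx4 (chr13:73397945-73407068) and Irx6 (chr8:95198188-95204855) came last, also on the plus strand. Beyond the last gene, both regions continued into a pair of paralogues, Lpcat1 and Slc6a3 on chromosome 13 and Lpcat2 and Slc6a2 on chromosome 8, which encode lysophosphatidylcholine acyltransferases and the transporters of dopamine and noradrenaline. Peaks are numbered along the plus strand, from chr13-1 to chr13-20 and from chr8-1 to chr8-13.

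The CTCF motif was searched on both strands within 150 bp of each summit with a matrix of 19 bp, whose consensus reads TGGCCACCAGGGGGCACTA, at p 1e-05. A motif was called plus where this consensus reads along the plus strand. The sequences below are the sites next to the members, that is, for each gene the closest summit with a motif on either side of its start. Each is mm9 sequence read 5′ to 3′ on the strand of the motif, with the 19 bp of the motif in capitals and 20 bp on each side.
chr13-1 at chr13:72094044-72094062, plus strand: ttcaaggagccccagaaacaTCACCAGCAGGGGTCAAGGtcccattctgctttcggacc
chr13-2 at chr13:72240878-72240896, plus strand: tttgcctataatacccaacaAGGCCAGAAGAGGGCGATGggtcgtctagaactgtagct
chr13-8 at chr13:73170698-73170716, minus strand: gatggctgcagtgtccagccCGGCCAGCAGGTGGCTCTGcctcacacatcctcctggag
chr13-12 at chr13:73389682-73389700, plus strand: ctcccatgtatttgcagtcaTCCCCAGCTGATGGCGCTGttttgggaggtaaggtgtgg
chr13-13 at chr13:73448197-73448215, minus strand: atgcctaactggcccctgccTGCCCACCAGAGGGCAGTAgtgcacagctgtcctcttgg
chr8-1 at chr8:94056062-94056080, plus strand: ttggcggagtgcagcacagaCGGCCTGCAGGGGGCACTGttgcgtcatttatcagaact
chr8-2 at chr8:94537276-94537294, minus strand: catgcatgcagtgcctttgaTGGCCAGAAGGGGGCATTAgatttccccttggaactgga
chr8-5 at chr8:94851241-94851259, plus strand: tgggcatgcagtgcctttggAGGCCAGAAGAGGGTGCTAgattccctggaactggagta
chr8-7 at chr8:94891016-94891034, minus strand: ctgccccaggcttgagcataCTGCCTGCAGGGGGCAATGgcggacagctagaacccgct
chr8-9 at chr8:95170715-95170733, plus strand: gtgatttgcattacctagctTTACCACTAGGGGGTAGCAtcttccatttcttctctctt
chr8-10 at chr8:95289140-95289158, plus strand: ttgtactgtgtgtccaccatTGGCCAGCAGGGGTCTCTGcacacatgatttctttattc

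At this threshold, motifs pointed toward each other across 4 of the 6 gene starts, a count that depended on the settings for Irx2 and Irx5. Irx2, which acts in cerebellar development, stood between chr13-2 on plus, 525 kb before its start, and chr13-8 on minus, 405 kb after it, with 5 nearer summits that had no motif at p 1e-05. At p 1e-04 the closest summits with a motif were chr13-3 on minus, 3.44 kb upstream, and chr13-5 on plus, 11.5 kb downstream, so that the motifs around Irx2 pointed apart and the count was 3 of 6, beside 28.1% of all gene starts. Searched over whole peaks, Irx2 lay between motifs that both pointed along minus, and the count was again 3 of 6. Irx4, which is required for ventricular identity in the heart, stood between chr13-12 on plus, 8.17 kb upstream, and chr13-13 on minus, 50.3 kb downstream. Irx3, a neural tube and cardiac conduction factor, stood between chr8-1 on plus and chr8-2 on minus, which are 481 kb apart. Irx5, a regulator of cardiac repolarization and of retinal bipolar cells, had the tightest pair, chr8-5 on plus 30.5 kb upstream and chr8-7 on minus 9.46 kb downstream, 39.9 kb apart. The 2 others, Irx1 between chr13-1 and chr13-2 and Irx6 between chr8-9 and chr8-10, each lay between motifs that both pointed along plus. Of all 22173 protein-coding gene starts with such a summit on both sides, 28.3% lay between motifs that point toward each other, at a median of 124 kb between the summits. This way of pairing was chosen after the motif directions had been seen, and whether 4 of 6 differs from that share was not tested. When peaks scoring below 100 were left out, among them chr13-2, chr8-1 and chr8-5, the count was 2 of 6, Irx4 and Irx3, beside 26.0% of gene starts. The plus motif of the Irx3 pair then lay outside the region, 313 kb from the gene start, and both motifs around Irx5 pointed along minus.

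Over the whole regions, the clusters held motifs of both directions. Motifs lay on plus at 7 and on minus at 4 summits of the chromosome 13 cluster, and on plus at 6 and on minus at 5 summits of the chromosome 8 cluster (two-sided Fisher's exact test, p = 1.00). Among the neighbouring motif pairs of each cluster, 3 were convergent and 3 divergent, and the remaining pairs were 3 plus and 1 minus on chromosome 13 and 2 plus and 2 minus on chromosome 8. Across all chromosomes, convergent and divergent pairs each made up 25% of neighbouring pairs.

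**Figure D1:**
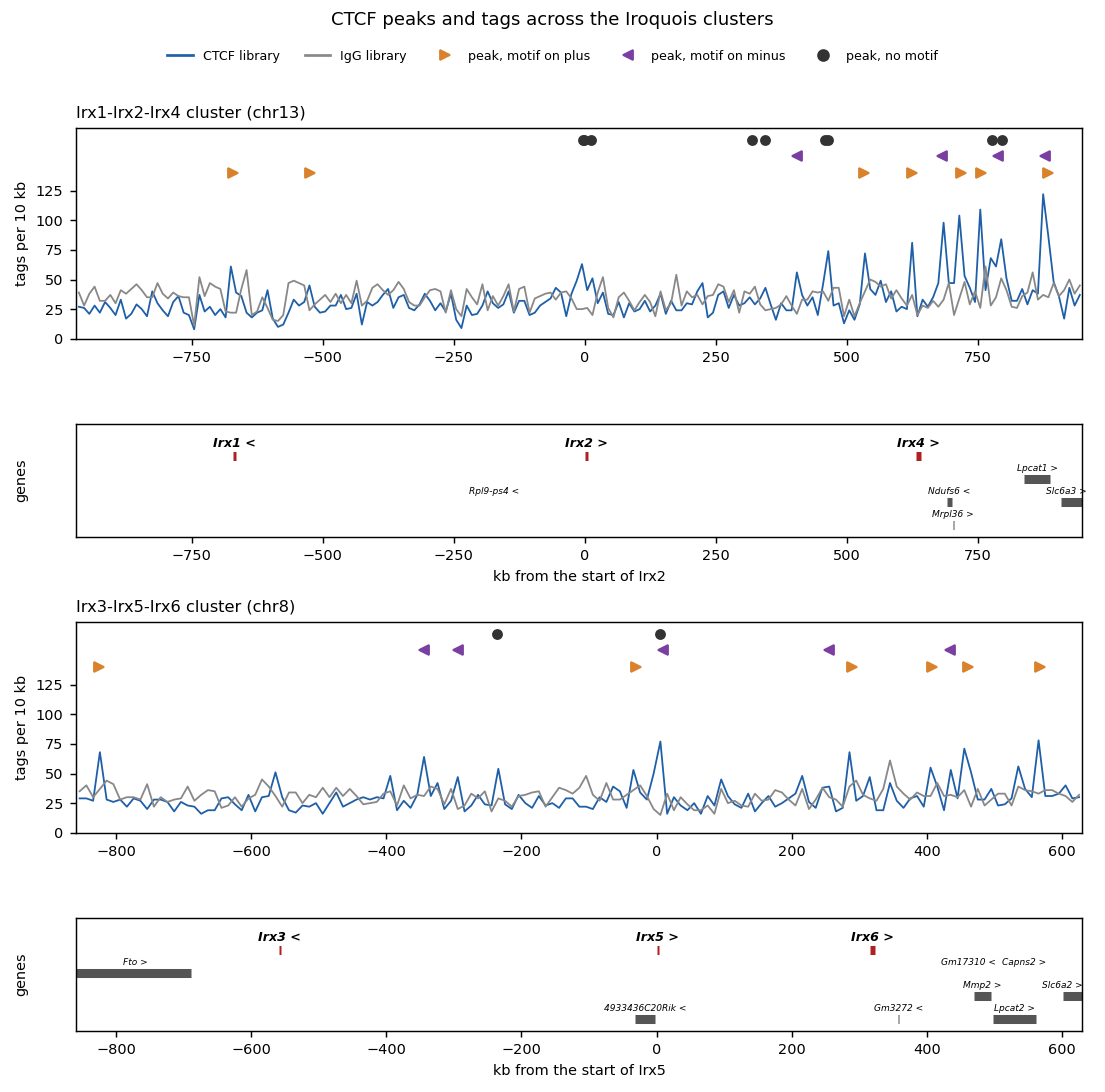
Tags per 10 kb of the CTCF library (blue) and the IgG library (grey) along both clusters, in kb from the start of Irx2 (upper panels) and Irx5 (lower panels), with 1 marker above the curves for each deposited peak, pointing right for a motif on plus, left for a motif on minus and round for no motif. The member genes are drawn in red and the other protein-coding genes in grey, with their direction, and the peaks of the chromosome 13 cluster crowd to the right of Irx4, where 8 of its 20 lie.

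In both clusters the peaks lay sparsely before the first gene and more densely after the third. In the 300 kb before Irx1 there was 1 peak, between Irx1 and Irx2 there were 3, between Irx2 and Irx4 there were 8 and in the 300 kb after Irx4 there were 8, which is 3.33, 4.51, 12.8 and 26.7 peaks per Mb. In the chromosome 8 cluster the same stretches held 1, 4, 4 and 4 peaks, or 3.33, 7.19, 12.8 and 13.3 per Mb. With flanks of 300 kb the order of these densities was thus the same on both chromosomes, as a description of 1 to 8 peaks a stretch. This order rested on the flank length. With flanks of 100 kb the densities no longer rose from stretch to stretch on either chromosome. The regions then held 14 and 9 peaks, against 11 and 8 without flanks. At 300 kb, the GC content of the stretches went from 42.6% to 46.6% on chromosome 13 and from 47.0% to 44.5% on chromosome 8. No summit fell into the body of any of the 6 genes, which are only 3.13 to 9.12 kb long. The share of all genes without a summit in the body is not given here. Long stretches without a peak lay in both clusters. A gap of 522 kb without a summit lay between Irx1 and Irx2 and ended 3.44 kb upstream of Irx2, and 2.18% of all gaps between neighbouring summits were as long. Irx1 itself started in a gap of 147 kb, matched in length by 11.7% of gaps. The gap before that one, which began outside the region, was 498 kb long, matched by 2.29%. Irx3 lay inside a gap of 481 kb, matched in length by 2.42% of gaps, whereas the median gap was 25.6 kb. A long gap covers more sequence than a short one, so a share of gaps is not a share of genes. By gene, 6.55% were as far from a summit as Irx3. The gaps of 522, 498 and 481 kb were named as the longest of both regions.

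The clusters had 10.5 and 8.77 peaks per Mb, a difference that did not pass the test (two-sided exact binomial test over peaks, p = 0.727). Together they had 9.72 peaks per Mb (exact 95% Poisson interval 6.69 to 13.7), against 13.2 per Mb over all chromosomes, a difference that did not pass the test (p = 0.0848, adjusted p = 0.113 by Benjamini-Hochberg over 4 comparisons). The Hox clusters A to D, taken with the same flanks, held 35.6 peaks per Mb, and the Dlx pairs 32.2 per Mb. By the same exact binomial test, the regions of both homeobox families were denser than the Iroquois regions (adjusted p = 9.67e-12 and 2.70e-08). The flanks of 300 kb made up most of each Dlx region, of 0.619 to 0.626 Mb, and of each Hox region, of 0.697 to 0.774 Mb. They were a smaller part of the Iroquois regions, of 1.91 and 1.48 Mb, so these densities do not compare the genes themselves. The region of Sox9 and Kcnj2 held 6.46 per Mb (adjusted p = 0.239 by the exact binomial test). Peaks called from 1 library are not replicates, so these tests say nothing of other cultures. The regions also differed in gene content, with 19 protein-coding genes in the Iroquois, 69 in the Hox, 27 in the Dlx and 4 in the Sox9 and Kcnj2 regions, whose part in the densities was not tested.

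**Figure D2:**
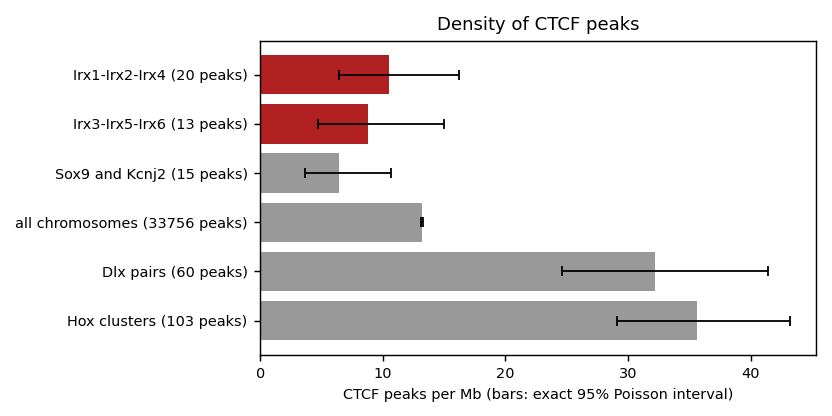
CTCF peaks per Mb in the regions of both Iroquois clusters (red), in 3 other sets of developmental genes with the same flanks and over all chromosomes (grey), with the number of peaks in parentheses and exact 95% Poisson intervals as bars. The intervals of the Iroquois clusters, 6.39 to 16.2 and 4.67 to 15.0, overlap each other and the value of all chromosomes, 13.2, and lie below those of the Dlx pairs and Hox clusters.

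In their medians, the summits were at or below the height of all peaks. The height is the deposited pileup at the summit in tags, and its median was 11 in the chromosome 13 cluster (lowest 6, highest 31) and 13 in the chromosome 8 cluster (lowest 6, highest 25), beside 13 over all peaks. The highest summits lay after the last gene. On chromosome 13 they were chr13-14 with 31 tags, higher than 98.4% of all summits, 85118 bp past the start of Irx4, and chr13-15 with 20 tags, higher than 85.3%. The next were chr13-20 with 18 and chr13-19 with 16 tags, both in introns of Lpcat1, and chr13-12 with 17 tags upstream of Irx4. On chromosome 8 they were chr8-13 with 25 tags, higher than 94.9%, and chr8-12 with 19 tags, 251991 and 144117 bp past the start of Irx6. There followed chr8-2 and chr8-9 with 18 tags each and chr8-8 with 15 tags.

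The median height of a stretch was highest after the last gene in both clusters. The medians were 11, 7, 9.5 and 15.5 tags from before Irx1 to after Irx4, and 11, 11, 13 and 16 tags from before Irx3 to after Irx6. With 1 to 8 summits in a stretch, these medians are a description.

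**Figure D3:**
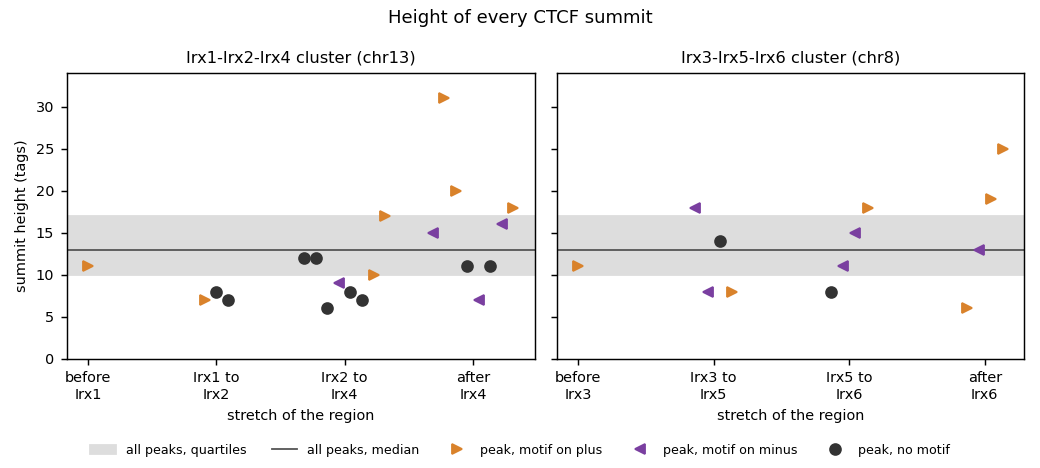
Height of each of the 20 and 13 CTCF summits in tags, by stretch of the region, with markers for motif direction as in the map. The grey band spans the quartiles of all summits, 10 to 17 tags, around their median of 13, and the summits above the band, from 18 to 31 tags, lie after the last gene except chr8-2 and chr8-9.

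The peaks carried tags of the CTCF library in excess of the IgG library by similar factors in both clusters. In the peaks of the chromosome 13 cluster lay 514 CTCF and 52 IgG tags, and in those of the chromosome 8 cluster 289 and 29. Scaled for depth, the ratios were 9.41 (exact 95% interval 7.07 to 12.8) and 9.49 (6.47 to 14.4), and no difference was found between them (two-sided Fisher's exact test, p = 1.00). Over all peaks the ratio was 8.74. Since the peaks were called for CTCF over IgG in these libraries, the ratios mostly restate the calls, and only their comparison is informative.

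Outside the peaks the CTCF library was below the IgG library, with 5887 against 6641 tags on chromosome 13 and 4200 against 4567 on chromosome 8. The scaled ratios there were 0.844 (0.815 to 0.874) and 0.876 (0.839 to 0.913), and their difference did not pass (two-sided Fisher's exact test, p = 0.190). Over all chromosomes the ratio outside peaks was 0.898. It lies below 1 by the scaling to all tags, since 11.5% of CTCF tags but 1.31% of IgG tags lay in peaks. The ratios of the clusters are to be read beside this value and not beside 1.

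A motif lay at 22 of the 33 summits, 66.7% (exact Clopper-Pearson 95% interval 48.2 to 82.0), beside 72.6% of all summits. On chromosome 13 it was 11 of 20, 55.0% (31.5 to 76.9), and on chromosome 8 it was 11 of 13, 84.6% (54.6 to 98.1). Motif scores had medians of 20.4 and 20.3 bits and a median of 19.2 bits over all summits with a motif. The summits without one stood between 6 and 12 tags on chromosome 13 and at 8 and 14 tags on chromosome 8. They included all 3 summits near Irx2, namely chr13-3 and chr13-4 upstream and chr13-5 downstream of the gene.

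Of the 22 sites, 8 held the letters CCAGAAG at position 4 to 10 of the motif, counted from its 5′ end. These were 3 of 11 on chromosome 13 and 5 of 11 on chromosome 8, or 36.4% of the sites, beside 22.8% of the 24514 motifs at all summits. The letters were chosen after the sites had been aligned. When the 301 bp around each summit of 1 cluster were compared with those of the other by blastn, at an expect value of 1e-05, the 260 pairs of windows gave 9 alignments, and all of them joined these 8 sites. The longest stretch at high identity joined chr13-14 and chr8-5, which shared 89.5% of 57 bp. As background, rodent B2 SINE repeats are known to carry a CTCF motif, and repeat annotation was not used here. No alignment joined other windows, among them those past the 3′ ends of Irx2 and Irx5. The sites chr13-2, chr8-2 and chr8-5 are printed above, and the remaining 5 are shown here in the same way, since they carry the shared letters.
chr13-14 at chr13:73483099-73483117, plus strand: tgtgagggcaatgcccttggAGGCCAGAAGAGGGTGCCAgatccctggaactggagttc
chr13-15 at chr13:73521229-73521247, plus strand: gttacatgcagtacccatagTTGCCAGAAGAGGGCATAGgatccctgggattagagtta
chr8-3 at chr8:94587419-94587437, minus strand: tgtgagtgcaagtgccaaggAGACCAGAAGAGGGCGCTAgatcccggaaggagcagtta
chr8-11 at chr8:95316057-95316075, minus strand: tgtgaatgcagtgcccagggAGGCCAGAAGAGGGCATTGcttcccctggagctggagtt
chr8-13 at chr8:95450189-95450207, plus strand: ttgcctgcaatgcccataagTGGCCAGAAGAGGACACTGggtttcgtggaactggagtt

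The heights of the 8 summits ran from 7 to 31 tags with a median of 15.5, and that of the other 14 sites was 13. Among all summits the medians were 12 tags with the letters and 14 without. How tags with several possible positions were placed is not given in the sources used here.

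At the gene starts themselves there were few CTCF tags. Within 1 kb of the start, the CTCF and IgG libraries held 7 and 1 tags at Irx1, 8 and 5 at Irx2, 5 and 3 at Irx4, 5 and 3 at Irx3, 5 and 0 at Irx5 and 16 and 1 at Irx6. The median over all genes was 7 CTCF and 5 IgG tags. Only Irx6, a factor of retinal bipolar cells, passed the test, with a scaled ratio of 15.2 (exact 95% interval 2.37 to 639, adjusted p = 0.00487 by two-sided exact binomial test with Benjamini-Hochberg adjustment over 22367 genes). This was 1 of 6 members, while 10.1% of all genes were called higher in the CTCF library. For the 5 others the adjusted p lay between 0.313 and 1.00, and at Irx5, with no IgG tag, the interval of the ratio started at 0.872.

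The call at Irx6 depended on the window. Of its 16 CTCF tags, 11 lay from 1000 to 500 bp upstream of the start, with 1 IgG tag, and 3, 1 and 1 in the following steps of 500 bp. With 500 bp on each side it had 4 CTCF and 0 IgG tags and no member was called, beside 4.90% of genes. With 5 kb on each side it had 47 and 27 tags (adjusted p = 0.106 by the exact binomial test). No deposited peak lay there, since the nearest summit, chr8-9, was 27.4 kb upstream, and the 2 motifs within 1 kb of the start, at 430 bp upstream and 343 bp downstream, had 1 CTCF tag each within 150 bp.

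With 5 kb on each side, 3 other members were called, beside 26.7% of genes. Irx2 had 63 CTCF and 20 IgG tags (adjusted p = 4.49e-05), Irx5 had 55 and 13 (adjusted p = 6.97e-06) and Irx3 had 47 and 18 (adjusted p = 0.00376), all by the same exact binomial test. At Irx3, 27 of the CTCF tags and 5 of the IgG tags lay past the 3′ end of the gene, which is shorter than the window, and 20 and 13 lay before it. At Irx5, 15 and 3 lay past the 3′ end and 40 and 10 before it. A summit lay within 5 kb of the start at 2 of the 6 genes, Irx2 and Irx5, as at 24.1% of all genes. The peaks of these summits were called in the same libraries, so the 5 kb calls at Irx2 and Irx5 partly restate them. The nearest summits were chr13-4 with 7 tags, 1001 bp upstream of Irx2, and chr8-6 with 8 tags, 4448 bp downstream of the start of Irx5. The distance from the start to the nearest summit was 7.02 kb for Irx1, 8.17 kb for Irx4, 27.4 kb for Irx6 and 212 kb for Irx3, and 6.55% of genes were as far from a summit as Irx3. The starts are rich in CpG, with 64 to 123 CpG in the 1001 bp around them and 64.5% to 73.8% GC, while the median gene had 41.0 CpG. Of all genes, 30.1% had at least 64 CpG and 2.18% at least 123. Tags of both libraries were few there, and within 500 bp of the start of Irx2 there was no tag in either library.

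The 3′ ends of the first genes of both clusters had more CTCF tags. In the 2 kb past the end of Irx1 lay 28 CTCF and 3 IgG tags, a ratio of 8.89 (2.74 to 45.7, adjusted p = 1.56e-04 by the exact binomial test over all genes). The peak chr13-1, with its summit 1526 bp past the end and a height of 11 tags, lies in this window. In the 2 kb past the end of its paralogue Irx3 lay 29 CTCF and 5 IgG tags, a ratio of 5.52 (2.11 to 18.3, adjusted p = 9.75e-04 by the same exact test), although no deposited peak overlaps this window. Most of these tags are among those counted within 5 kb of its start. Irx5 had 19 and 4 tags there (adjusted p = 0.0346 by the same exact test) with the summit of chr8-6 792 bp past its end. Irx2 had 7 and 6 tags, Irx4 5 and 5 and Irx6 5 and 4, and none of these was called. Thus 3 of the 6 members were called higher past the 3′ end, and 8.15% of all genes. The windows of Irx1 and Irx5 hold peaks called over IgG in these same libraries, so their tests mostly restate the peak calls. The window was chosen after the tags at Irx3 had been seen.

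**Figure D4:**
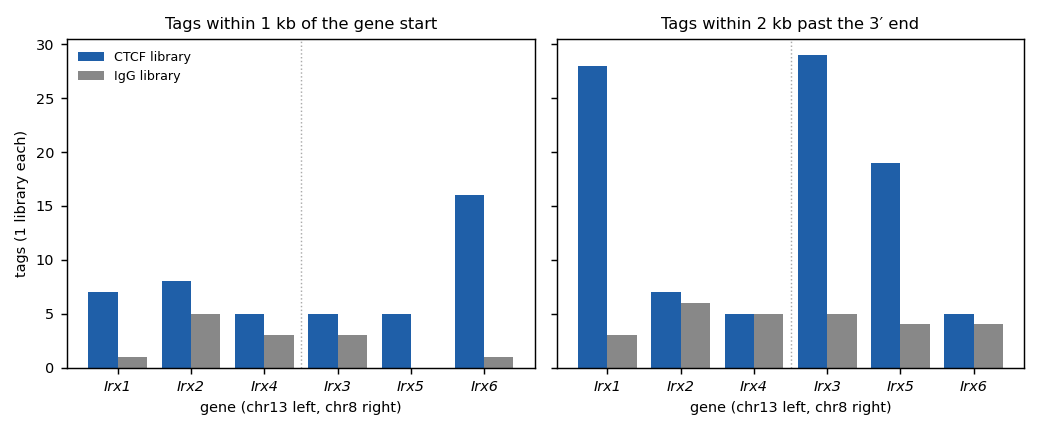
Tags of the CTCF library (blue) and the IgG library (grey), 1 library each and not scaled for depth, within 1 kb of the start (left) and within 2 kb past the 3′ end (right) of the 6 genes. Past the ends of Irx1, Irx3 and Irx5, CTCF stands at 28, 29 and 19 tags against 3, 5 and 4 of IgG, and at the starts the tallest bar is that of Irx6, with 16 against 1.

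Within 10 kb past the 3′ end, a summit was found at Irx1, Irx2 and Irx5, 3 of 6, beside 25.5% of all genes. This count is not independent of the calls in the 2 kb windows, since those of Irx1 and Irx5 hold the same peaks. The remaining member differed, as Irx3 was called in its 2 kb window without a peak and Irx2 was not called. The middle genes had chr13-5 at 6134 bp past the end of Irx2 (12 tags, no motif) and chr8-7 at 5801 bp past the end of Irx5 (11 tags, motif on minus), and Irx5 also had chr8-6, which is nearer to its end. In the peak chr13-5 lay 14 CTCF and 0 IgG tags, and in chr8-7 lay 25 and 4.

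Across the gene bodies the scaled ratios were all above 1. They ran from 1.21 at Irx6 to 1.62 at Irx1 with intervals that held 1, except at Irx5 with 10 CTCF tags and 1 IgG tag (ratio 9.52, 1.35 to 413). Counts were as low as 6 and 4 tags, at Irx3. All sequence outside the peaks of these regions had a ratio of 0.857 (0.834 to 0.880), against which the bodies were not tested.

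Most motifs of the regions were not in a peak. Of 374 motifs at p 1e-05, 31 lay in peaks, 8.29%, and 343 outside. Neither this share nor the ratio around the motifs outside is given for all chromosomes here, so neither can be called particular to these regions. Around those outside, within 150 bp, lay 456 CTCF and 297 IgG tags, a scaled ratio of 1.46 (1.26 to 1.70, two-sided exact binomial test, p = 3.10e-07). All sequence outside the peaks had 0.857 (0.834 to 0.880). The ratio around the motifs was 1.54 (1.27 to 1.86) on chromosome 13 and 1.35 (1.07 to 1.72) on chromosome 8. The test is against the CTCF share of all tags, and sequence of like GC content was not compared. The gene bodies, which held no summit, also had ratios above 1. At 132 of the 343 there was no CTCF tag at all. The site with the most tags, 11 CTCF and 5 IgG, was 1061 bp from a summit. Another, with 9 CTCF tags and no IgG tag, lay 19902 bp upstream of Irx2.

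Of the other 13 protein-coding genes of the regions, Fto, whose start lies outside the region of Irx3, had 18 CTCF and 2 IgG tags within 1 kb of its start (adjusted p = 0.00673, exact binomial test) and was the only one called. Its introns reach toward Irx3 and hold chr8-1, the 1 peak before that gene, with 11 tags, 270 kb from its start. The gene 4933436C20Rik next to Irx5 holds chr8-5, and Lpcat1 holds chr13-19 and chr13-20. All other summits of the regions were intergenic.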

How the data were processed

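CTCF ChIP-seq was analysed from 1 GFP-antibody library and 1 IgG library. The authors deposited aligned tags with a count of 1 each, without normalization, and for CTCF peaks with the MACS score, which grows with the significance over IgG, and summits with the signal, a pileup height in tags (MACS 1.4, from the submitters' processing notes). Coordinates are mm9. The aligner is not given in the sources used here.

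Each tag was shifted 92 bp downstream, since tags of opposite strands stood 185 bp apart at the 1000 peaks of highest score. The tools were scipy 1.17.1, numpy 2.4.6, pysam 0.24.0, pandas 2.3.3, samtools 1.23.1, blastn 2.17.0 and matplotlib 3.10.9 under Python 3.11.15. Ratios were scaled by all tags, 8391191 for CTCF and 7988889 for IgG (factor 1.05), with exact 95% binomial intervals. Gene starts were tested by the exact binomial test over all genes with Benjamini-Hochberg adjustment at 0.05, as were 3′ ends. The motif matrix came from 192 CTCF sequences listed in the supplement, turned to 1 orientation, with a pseudocount of 1 and base frequencies of 0.29 (A, T) and 0.21 (C, G). Sequences and genes were those of NCBI m37 and GENCODE M1. Densities used 33756 peaks on chromosomes 1 to 19, X and Y and leave out unsequenced bases. Scripts were tested on simulated data.

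The members, lists and tests were chosen with earlier results of these data known. Named peaks are those within 5 kb of a start, next to a start, the 5 highest of each region, the outermost with a motif between members and, chosen after their sequences were seen, those with shared letters. Alternatives varied window, scaling, filter, score, flank, motif threshold and peak limits, and those of the motif pairs around gene starts were chosen after seeing the data.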

Additional observations from a re-analysis of the deposited data

How the results depend on the processing

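Of 52 alternatives to 15 results, 38 stayed within the error or the factor of 1.5 set for them, 14 moved and 0 reversed. The number of members called at their start, 1, was 0 with 500 bp and 3 with 5 kb on each side. Within 150 bp of the summit the ratios in peaks were 15.2 on chromosome 13 and 15.9 on chromosome 8. Scaled by the tags outside peaks, the ratios outside were 0.941 and 0.976, by construction nearer to 1. With a score of at least 100, densities were 5.23 and 4.05 peaks per Mb (7.81 over all chromosomes) and the median height on chromosome 13 was 15.5, since low peaks are left out. Within 50 bp of the summit the motif share was 42.4%, and at a motif p of 1e-06 there were 78 motifs outside peaks, both by construction lower. The number of members between motifs that point toward each other, 4, was 3 at a motif p of 1e-04 and over whole peaks, 4 at p 1e-06 and with the match nearest to the summit, and 2 with a score of at least 100, all chosen after seeing the data. No comparison between the clusters passed p 0.05 under any alternative run.

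No paired analysis was possible because each antibody has 1 library, and no library could be left out. With at most 16 tags at a start, small differences were not detectable at this depth. If the control was input DNA, as 1 label has it, the ratios are ratios to input.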
